A study of Homo sapiens with 8 samples.

Results

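MALAT1, NEAT1, TUG1, PVT1, FTX, JPX and HOTAIR are long non-coding RNAs best known for work in the nucleus. Their m6A peaks were taken as the entries of the peak lists used here whose gene column held one of these 7 names. This gave 24 of 28949 peaks, of which 11 stood in the list of DF2 siRNA cells (13219 peaks) and 13 in the list of control cells (15730 peaks). The cells were U2OS, an established human osteosarcoma line, treated with siRNA against YTHDF2 (DF2) or used as control. The labels give no dose or duration of the siRNA, nor what the controls received, and the numbers 1 and 2 may mark different siRNAs or repeats. How far YTHDF2 was reduced was not analysed here. All libraries came from fragmented cytoplasmic RNA, either as input or after precipitation with an anti-m6A antibody, in 4 groups of 2 libraries. Each peak list belongs to both m6A libraries of its condition. No nuclear RNA was analysed here, so the peaks describe the part of these transcripts that reached the cytoplasmic extract, and how much nuclear RNA the extract carried was not tested.

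m6A is a methyl mark on adenosines, placed in the nucleus by the METTL3 and METTL14 methyltransferase complex and read by proteins of the YTH family. YTHDF2 is the cytoplasmic reader that leads marked RNA to decay, whereas YTHDC1 is the reader in the nucleus. MALAT1 gathers in nuclear speckles, next to splicing factors, and is a classical example of a methylated non-coding RNA. NEAT1 is the scaffold of paraspeckles. FTX and JPX come from the X inactivation centre, PVT1 lies next to the oncogene MYC, HOTAIR comes from the HOXC cluster, and TUG1 is found in both nucleus and cytoplasm.

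Peaks of DF2 siRNA cells lay almost wholly within those of control cells, and they covered less sequence. Peaks of the 7 RNAs covered 8000 nt of exonic sequence in the DF2 siRNA list and 12593 nt in the control list, and 7600 nt were common to both. Of the DF2 siRNA bases, 95% also lay in control peaks, against 85% over the whole list and 84.7% for peaks labelled non-coding RNA. Of the control bases, 60.4% also lay in DF2 siRNA peaks, against 67.7% over the whole list and 50.8% for non-coding RNA peaks. Shares over whole lists carry a limit in how exonic blocks were read, given with the processing. By the file headers, the −log10 value is of an FDR for DF2 siRNA and of a p-value for control, with a minimum of 1.30 in both lists. Taken so, the lists have unlike limits. What this does to covered bases, overlap and widths was not tested. The DF2 siRNA list was the shorter of both, sequencing depth behind each list is unknown, and there was 1 list per condition. No difference between conditions could therefore be tested. In peak lists, a lower methylated share and less of the RNA itself cannot be told apart.

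The sequence at the 5′ side of the MALAT1 peaks is shown first, because the widest control peak without counterpart lay there. A control peak of 800 nt covered chr11:65498962-65499761 (hg38, plus strand), and no DF2 siRNA peak touched it. Its first 133 bases lie in a RefSeq window around an annotated MALAT1 start (GRCh38.p14), at chr11:65498962-65499094. Capitals mark the 50 bases from that start, at position 65499045, onward:
MALAT1, first 133 bases of the control-only peak: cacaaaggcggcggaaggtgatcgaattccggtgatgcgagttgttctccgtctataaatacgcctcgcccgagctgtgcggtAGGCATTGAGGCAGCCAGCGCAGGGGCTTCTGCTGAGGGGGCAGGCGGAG
The stretch was 61.7% G and C. GGAC, the letters at the heart of the best known m6A context, occurred in it 0 times on either strand, and so did the longer GGACT, which contains it. On the sense strand, GGAC stood in 40.2% and GGACT in 12.4% of the last 133 bases of all 35116 RefSeq windows. On either strand the shares were 63.1% for GGAC and 22.6% for GGACT. The rest of the peak was not searched.

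FTX is also the host transcript of several miRNAs, small RNAs cut from hairpins. Their mature sequences are from RefSeq (GRCh38.p14, chromosome X, minus strand), with the seed (bases 2 to 8) in capitals:
hsa-miR-374a-3p: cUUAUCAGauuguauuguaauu
hsa-miR-374b-3p: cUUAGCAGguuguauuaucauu
hsa-miR-421: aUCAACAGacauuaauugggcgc
hsa-miR-545-3p: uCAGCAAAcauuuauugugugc
No base of these 4 miRNAs lay in a peak of either list. Peaks follow exons, so a miRNA within an intron could not lie in a peak. Whether these 4 lie in introns was not checked, so their absence from the peaks says nothing about m6A. The 5′ edge of the FTX peak, on the minus strand, lay at position 74278500. On its 5′ side, miR-545-3p lay from 74287126 and miR-374a-3p from 74287295 onward. For miR-374b-3p and miR-421, on the other side of the peak, the nearest base of the FTX peak was 29342 and 29506 nt away. The seeds of the 2 miR-374 sequences differ from each other, and the 4 seeds are all distinct.

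**Figure D1:**
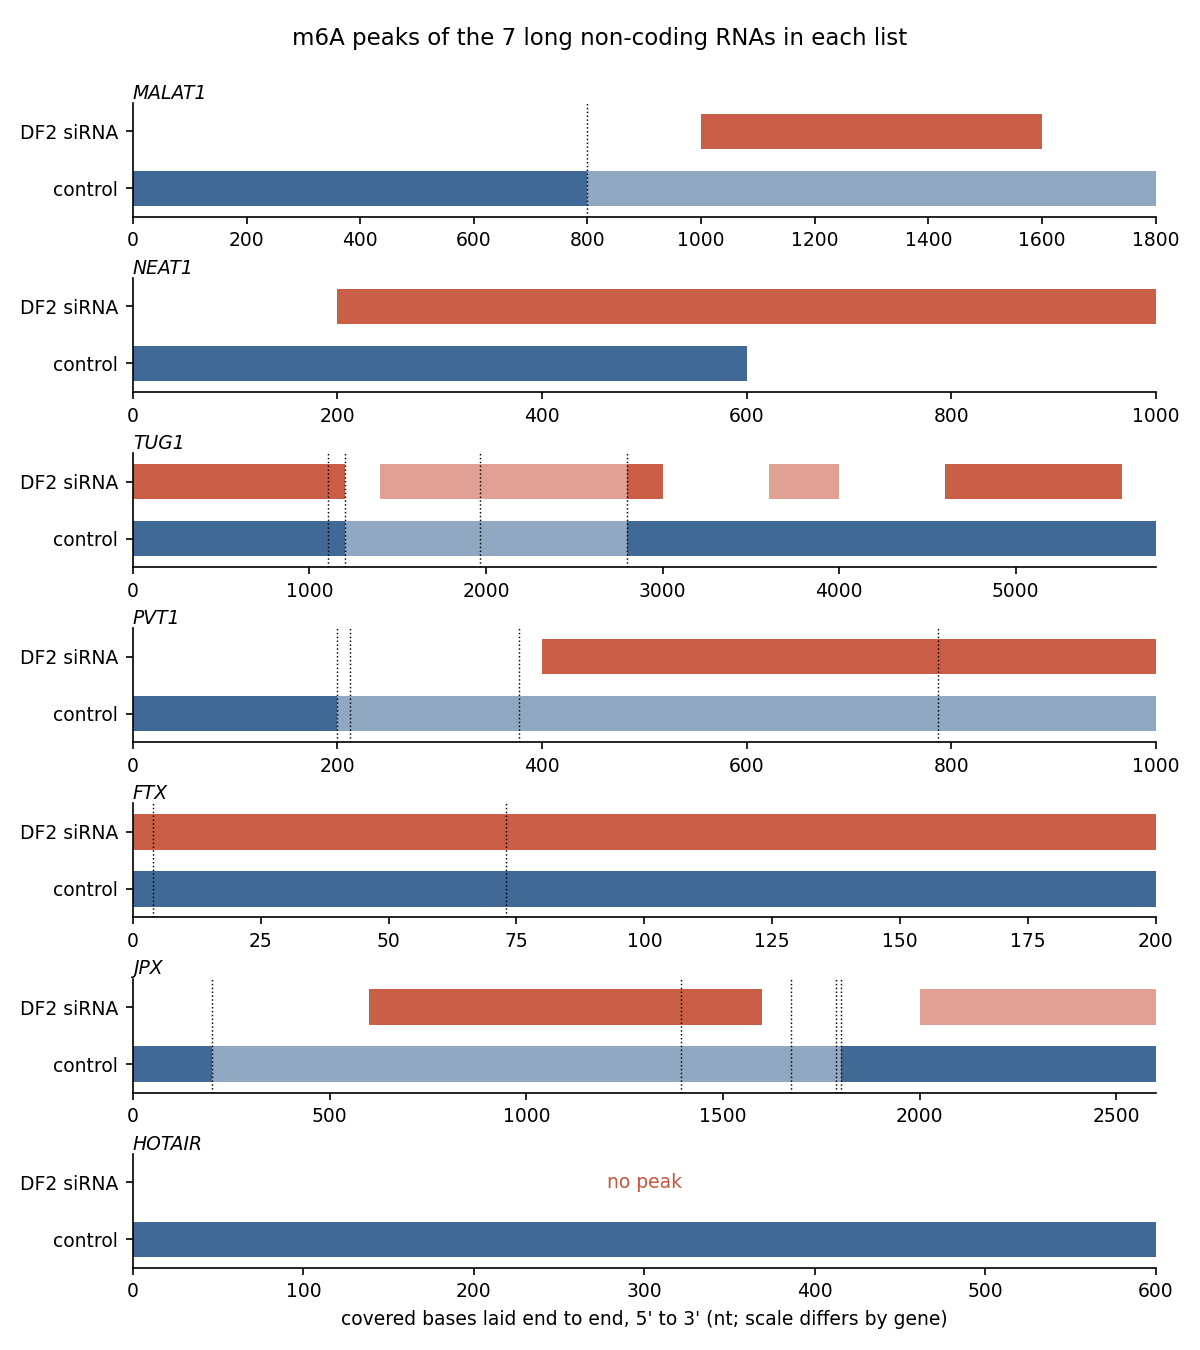
Peaks of the 7 RNAs in the DF2 siRNA list (upper bar) and the control list (lower bar). The x axis gives the bases that lie in a peak of either list, laid end to end from 5′ to 3′ in nt, shade changes mark separate peaks, and dotted lines mark where introns or bases outside all peaks were left out. NEAT1 is the 1 RNA with bases in the DF2 siRNA list alone (400 nt), HOTAIR has no DF2 siRNA peak, and the FTX bars are identical.

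Judged by their widths, peaks were built from bins of 200 nt along the exons, so most moves came in whole bins. Over all pairs of peaks that were each other's only partner, 91.0% of start moves and 89.4% of end moves were multiples of 200 nt. All 11 DF2 siRNA peaks and 12 of the 13 control peaks of the 7 RNAs had a width that was a multiple of 200 nt, against 90.9% of all DF2 siRNA peaks and 87.2% of all control peaks. Peaks of the 7 RNAs had a median width of 600 nt in DF2 siRNA cells (range 200 to 1400 nt) and 800 nt in control cells (range 200 to 2993 nt). Over all peaks the median was 600 nt in both lists, and the same held for non-coding RNA peaks. An uninterrupted stretch of genome made up 6 of the 11 DF2 siRNA peaks and 8 of the 13 control peaks of the 7 RNAs, against 58.1% of all DF2 siRNA peaks and 53.7% of all control peaks. The others crossed exon junctions.

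Every DF2 siRNA peak of the 7 RNAs lay on a control peak, while 4 control peaks had no counterpart. A peak counted as overlapped where an entry of the other list held 1 or more of its exonic bases, strand for strand. All 11 DF2 siRNA peaks were (100%, 95% exact binomial interval 71.5 to 100%), against 87.5% of all DF2 siRNA peaks and 88.7% of those in non-coding RNA. In the other direction, 9 of 13 control peaks were overlapped (69.2%, 38.6 to 90.9%), against 71.9% of all control peaks and 52.7% of those in non-coding RNA. These intervals cover counting error only, and peaks of 1 gene are not independent of each other. The shares of the 7 RNAs thus lay close to those of the whole lists. The 4 control peaks without counterpart belonged to MALAT1 (800 nt), HOTAIR (600 nt), PVT1 (200 nt) and JPX (200 nt). By gene, 6 of the 7 RNAs with a control peak also had a DF2 siRNA peak, against 79.7% of all genes of the control list. All 6 with a DF2 siRNA peak had a control peak, against 92.9% of all genes of the DF2 siRNA list.

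**Figure D2:**
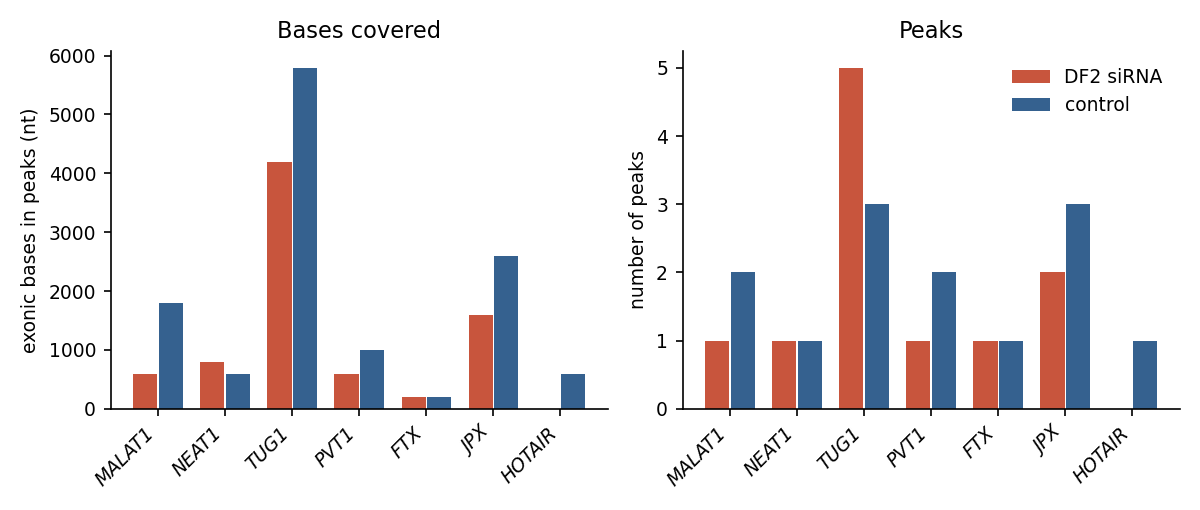
Exonic bases in peaks (left, nt) and number of peaks (right) for each of the 7 RNAs, with DF2 siRNA bars left of control bars. TUG1 had 4200 nt in 5 peaks in DF2 siRNA cells and 5793 nt in 3 peaks in control cells, and NEAT1 is the 1 RNA with more covered bases in DF2 siRNA cells.

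Among peaks that met in both lists, the start lay further downstream in DF2 siRNA cells for most of these RNAs. In 8 cases 1 DF2 siRNA peak and 1 control peak of the same gene were each other's only partner. The interval was identical in 2 of the 8, against 45.2% of all 10279 such pairs of the lists and 38.1% of the 993 pairs in non-coding RNA. DF2 siRNA peaks were narrower in 5 of the 8, against 37.9% of all pairs and 46.5% of those in non-coding RNA. The DF2 siRNA peak was wider in 1 of the 8, against 14.9% of all pairs. In 6 of the 8 the start had moved downstream, against 23.7% of all pairs and 30.8% of those in non-coding RNA, and in the other two it was the same. The end was the same in 5 of the 8, close to the share of 63.7% over all pairs, and it lay upstream in 2 and downstream in 1. Moves of the start ranged over 200 and 400 nt, that is 1 and 2 bins. Shares over all pairs carry the limit in how exonic blocks were read, given with the processing, and may be off. With 1 list per condition, and RNAs chosen with earlier results of these data known, the difference from all pairs was not tested.

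**Figure D3:**
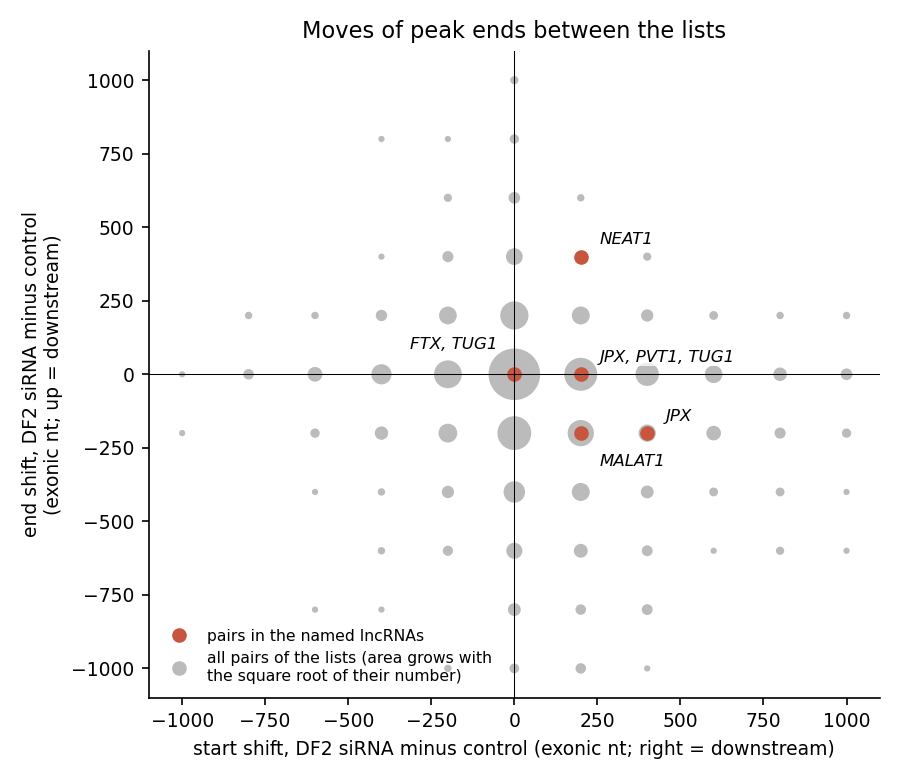
Move of the peak start (x axis) and of the peak end (y axis), DF2 siRNA minus control in exonic nt and in transcript direction, for pairs of peaks that are each other's only partner. Grey points are all pairs of the lists with moves of whole bins, with an area that grows with the square root of their number, red points are the 8 pairs of the named RNAs, of which 3 share the point 200 nt to the right of the centre and 2 the centre itself. The grey points carry the limit in how exonic blocks were read, given with the processing.

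MALAT1 is an abundant, largely unspliced transcript of chromosome 11. In DF2 siRNA cells it carried 1 peak, chr11:65500162-65500761, of 600 nt, with a fold enrichment of 36.9 (score 2936). In control cells it carried 2 peaks. The upstream one, whose first bases are printed above, had a fold enrichment of 20.6 (score 3467). The downstream one, chr11:65499962-65500961, was 1000 nt wide, with a fold enrichment of 82.2 (score 22404). Both numbers were deposited by the authors, who give no meaning for the score. They rank peaks within a list and were not scaled between the lists, so values from both are set side by side without a test.

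Within its own list the DF2 siRNA peak of MALAT1 stood above 99.6% of peaks by score, with 49 peaks higher, and above 77.4% by fold enrichment. The downstream control peak stood above 99.99% by score, with 1 peak higher, and above 91.9% by fold enrichment. The DF2 siRNA peak lay inside this control peak and was 200 nt shorter at each end. All peaks lay towards the 5′ end of a gene that spans 8779 nt in RefSeq. The DF2 siRNA peak began 2424 nt and the upstream control peak 1224 nt after its outermost start.

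The upstream control peak of MALAT1 was among few at its score to lack a counterpart. Of 233 control peaks with a score of at least 3467, 2 had no DF2 siRNA peak on them (0.858%), this one and a coding and 3′ UTR peak of SERBP1 with a score of 3894. SERBP1 was named after its values were seen. The fold enrichment of the MALAT1 peak was low beside its score. Of the 233 control peaks whose score differed from it by a factor of at most 5/4, 5 had a lower fold enrichment (2.15%), and their median was 86.8, against 20.6 in MALAT1. Of peaks of like score, 10 of 61 (16.4%) had a lower fold enrichment than the MALAT1 peak of the DF2 siRNA list. The downstream control peak had only 1 other peak of like score, with a lower fold enrichment. The −log10 value of the upstream control peak, 3.68, lay above the minimum of 1.30 of its list. Its fold enrichment of 20.6 lay just under the list's median of 20.8, so with the upper 50% of each list by fold enrichment the peak was dropped, and the difference in covered bases of MALAT1, DF2 siRNA minus control, was -400 nt in place of -1200 nt. The 2 control peaks lie 200 nt apart, and with peaks of a gene within 200 nt merged they became 1 peak, which the DF2 siRNA peak met.

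NEAT1, the architectural RNA of paraspeckles, was the 1 RNA of the 7 whose DF2 siRNA peak reached past the control peak. In DF2 siRNA cells its peak, chr11:65424374-65425173, was 800 nt wide, with a fold enrichment of 12.1 (score 203). In control cells the peak, chr11:65424174-65424773, was 600 nt wide, with a fold enrichment of 32.4 (score 4175). The 2 peaks shared 400 nt, and in DF2 siRNA cells the start lay 200 nt and the end 400 nt further downstream. Such a move of both ends downstream was seen in 2.18% of all pairs in the lists. The RefSeq gene spans 22743 nt, and the peaks began 1576 nt (DF2 siRNA) and 1376 nt (control) after its start, in the 5′ part that the short and the long NEAT1 isoforms have in common. No entry used here lay in the part found in the long isoform alone that follows.

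NEAT1 also stood at different ranks in the lists. It exceeded 73.3% of peaks by score and 31.4% by fold enrichment in the DF2 siRNA list, and 99.0% by score and 65.5% by fold enrichment in the control list. Fold enrichment was low for the score in both lists. In the DF2 siRNA list 54 of 1259 peaks of like score (4.29%) had a lower fold enrichment, and in the control list 11 of 170 (6.47%). The −log10 value of the DF2 siRNA peak was 1.63, near the minimum of 1.30 of that list.

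**Figure D4:**
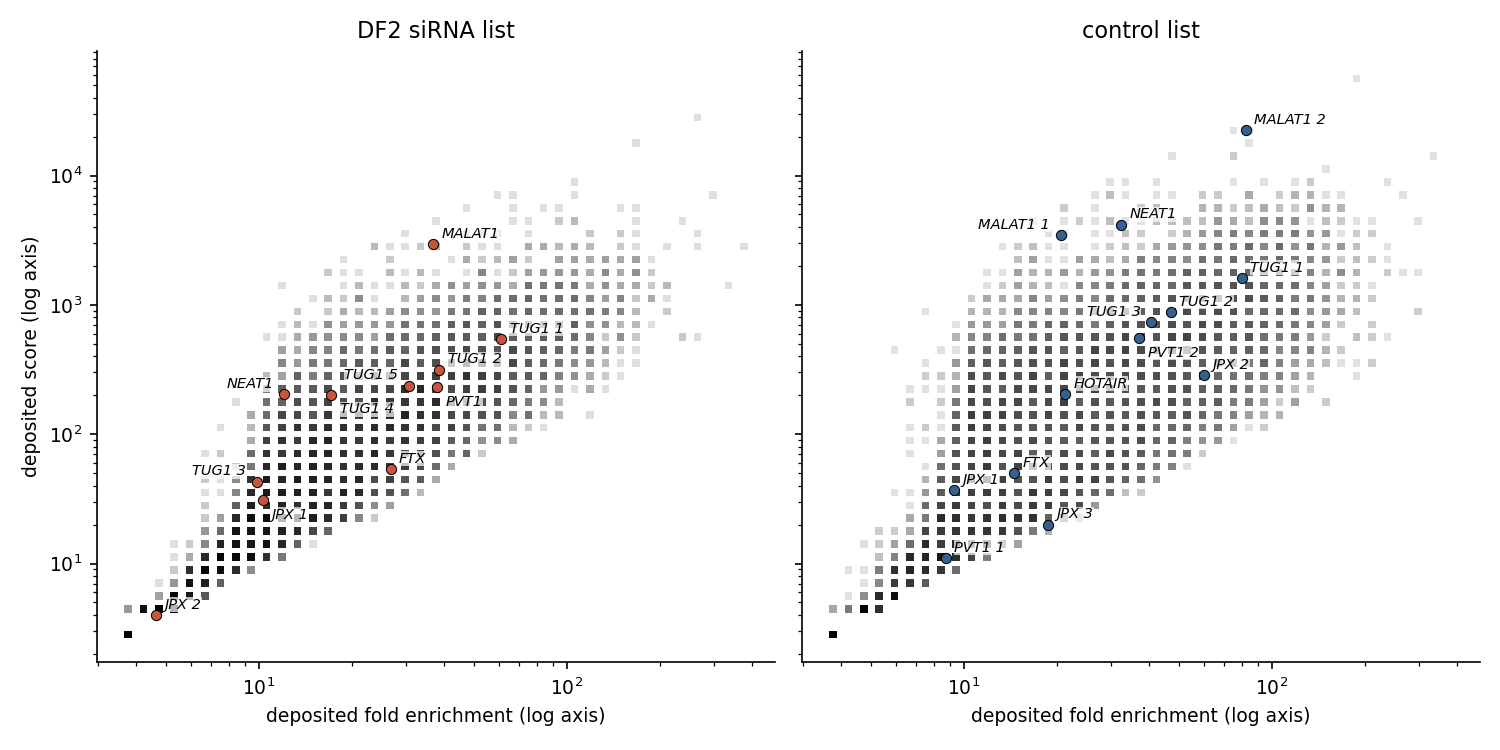
Deposited fold enrichment (x axis, log scale) and deposited score (y axis, log scale) of the peaks of the named RNAs, with the DF2 siRNA list left and the control list right, over all peaks of each list as grey squares that darken with their number. Numbers after a name count the peaks of that RNA from 5′ to 3′. NEAT1 lies towards the upper left of the grey area in both lists, as do the DF2 siRNA peak and the upstream control peak of MALAT1, and JPX holds the lowest DF2 siRNA score of the set, 4.

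TUG1 carried m6A peaks along most of its length and was the 1 RNA with more peaks in DF2 siRNA cells, 5 against 3 in control cells. It is a transcript of chromosome 22 that the authors label non-coding RNA, while the RefSeq table classes the gene as protein-coding. With the upper 50% of each list by fold enrichment, or with p or FDR 100 times smaller, TUG1 had 3 peaks in DF2 siRNA cells and 3 in control cells. Having 3 or more peaks was found in 11.9% of genes of the DF2 siRNA list and 12.6% of those of the control list. More DF2 siRNA than control peaks were found in 12.4% of the genes in both lists, and fewer in 20%. Among the other RNAs with peaks in both lists, 3 had fewer in DF2 siRNA cells (MALAT1, PVT1, JPX) and 2 had the same number (NEAT1, FTX).

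The peak nearest the 5′ end of TUG1 was identical in both lists, chr22:30970677-30972144, with 1200 nt in 2 exonic segments. Its fold enrichment was 61.3 in the DF2 siRNA list, above 90.4% of peaks there, and 79.9 in the control list, above 91.4% of peaks there. Scores were 544 in DF2 siRNA and 1610 in control. Higher fold enrichment in the DF2 siRNA list was found in 37.7% of the 4643 identical intervals of the lists, and TUG1 was not among them. The next peak covered 1400 nt in DF2 siRNA cells, chr22:30973035-30976002, with a fold enrichment of 38.6, and 1600 nt in control cells, chr22:30972835-30976002, with 47.0. These 2 peaks ended at the same base, and the DF2 siRNA peak lacked the bin at the 5′ end.

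At the 3′ end of TUG1, 3 DF2 siRNA peaks lay inside 1 control peak. The DF2 siRNA peaks ran over 200 nt from 30976403, 400 nt from 30977203 and 1000 nt from 30978203, with fold enrichments of 9.84, 17.2 and 30.6 and −log10 values of 1.43, 3.08 and 7.06, the first near the minimum of 1.30. The control peak, chr22:30976403-30979395, was 2993 nt long and the widest of the 7 RNAs, with a fold enrichment of 40.5. Between the DF2 siRNA peaks lay 2 gaps of 600 nt each, and a last 193 nt up to the end of the RefSeq gene were in the control peak alone. Among these 3 peaks, fold enrichment was higher the nearer the peak lay to the 3′ end. A control peak met by 3 or more DF2 siRNA peaks of the same gene was rare, at 0.347% of the 11240 control peaks with any. The surplus of DF2 siRNA peaks in TUG1 thus came with fewer covered bases, 4200 nt in DF2 siRNA cells and 5793 nt in control cells.

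Some TUG1 bases were listed again under other names. TUG1_1, TUG1_2 and TUG1_4, separate Ensembl entries inside the transcript, had peaks that lay wholly within TUG1 peaks. TUG1_2 had a fold enrichment of 34.4 in DF2 siRNA and 70.7 in control over the same 87 nt. TUG1_4 had 21.1 in DF2 siRNA and 27.6 in control over the same 181 nt. TUG1_1 had a peak in control alone, with 23.6 over 145 nt, although the TUG1 peak around it stood in both lists. These entries are the same RNA stretches and were not counted among the peaks of TUG1.

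PVT1, the neighbour of MYC on chromosome 8, carried 1 peak in DF2 siRNA cells and 2 in control cells. The DF2 siRNA peak, chr8:127890612-127932677, had 600 nt in 2 exonic segments, a fold enrichment of 37.9 (score 230). The matching control peak, chr8:127854784-127932677, had 800 nt in 4 segments, a fold enrichment of 37.1 (score 556). Both ended at the same base, and the control peak had 1 more bin at its 5′ end, mostly in exons further upstream. In its own list each stood at a like rank by fold enrichment, above 78.2% of peaks in DF2 siRNA and above 70.2% in control. The control peak without counterpart was a bin of 200 nt at 127852004, with a fold enrichment of 8.74 (score 11). Of the 14285 control peaks with at least that score, 22.2% had no DF2 siRNA peak on them. PVT1_3, another Ensembl entry, repeated 95 nt of the shared peak with fold enrichments of 26.6 in DF2 siRNA and 29.7 in control. The best peak of MYC itself had 58.5 in DF2 siRNA and 132 in control.

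FTX carried the same peak in both conditions, and it was the 1 RNA of the 7 listed with both a higher fold enrichment and a higher score in DF2 siRNA than in control. The peak was a bin of 200 nt spread over 3 exons, chrX:74247920-74278500 on the minus strand, 15074 nt of genomic distance from the RefSeq 5′ end. Fold enrichment was 26.8 in DF2 siRNA, above 66.3% of peaks of that list, and 14.6 in control, above 36.1% of peaks of that list. Scores were 54 in DF2 siRNA and 50 in control. Of all identical intervals, 37.7% had the higher fold enrichment in the DF2 siRNA list and 3.6% the higher score. The −log10 value was 8.95 (of an FDR) in DF2 siRNA and 3.29 (of a p-value) in control, which are not on the same footing. With the upper 50% by fold enrichment, or with p or FDR 100 times smaller, the FTX peak was left in DF2 siRNA alone.

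A stronger peak lay in the span of the RefSeq gene FTX under another name. RP3-368A4.5, on the same strand, had the same 1400 nt in 4 segments in both lists, chrX:74202526-74241948. Its fold enrichment was 82.4 in DF2 siRNA and 121 in control, above 95.2% of peaks in the list of DF2 siRNA cells and 97.7% in that of control cells. It shared no base with the FTX peak, and it was not counted as FTX, since the gene column decided.

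JPX, transcribed in the opposite direction from FTX on the X chromosome, carried 2 peaks in DF2 siRNA cells and 3 in control cells. The main peak covered 1000 nt in DF2 siRNA, chrX:73999700-74004477, with a fold enrichment of 10.3 (score 31). In control it covered 1600 nt, chrX:73999300-74069181, with a fold enrichment of 60.1 (score 288). The start lay 400 nt further downstream and the end 200 nt further upstream in DF2 siRNA cells, the largest difference in width among the 8 pairs. Its rank by fold enrichment was above 22.8% of peaks in the DF2 siRNA list and above 84.6% in the control list. Both JPX peaks of DF2 siRNA cells were dropped when p or FDR was set 100 times smaller, and likewise in the upper 50% by fold enrichment or score.

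The last JPX peak ended 3 nt before the RefSeq 3′ end in both conditions. It had 600 nt in DF2 siRNA, with a fold enrichment of 4.63 (score 4), and 800 nt in control, with a fold enrichment of 18.8 (score 20). The score of 4 stood above 1.10% of the DF2 siRNA list. RP13-33H18.1, an entry on the same strand, overlapped this peak by 182 nt in DF2 siRNA and 476 nt in control, so reads there could have been given to either. The control peak without counterpart was a bin of 200 nt near the 5′ end, at 73947176, with a fold enrichment of 9.30 (score 37) and a −log10 value of 1.45, close to the minimum of 1.30.

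HOTAIR, the HOXC transcript known for binding chromatin modifiers, had a peak in control cells alone. It lay at chr12:53962510-53963109 on the minus strand, with 600 nt that ended 198 nt before the RefSeq 3′ end. Its fold enrichment of 21.3 exceeded 50.7% and its score of 204 exceeded 57.1% of control peaks. Of the 6754 control peaks with at least that score, 6.75% had no DF2 siRNA peak on them. No peak of another name met it on either strand. HOXC11, which overlaps the other end of the HOTAIR gene on the opposite strand, had a peak in both lists, with fold enrichments of 112 in DF2 siRNA and 81.1 in control.

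The median fold enrichment and score of the 7 RNAs lay above those of each list and of its non-coding RNA peaks. The median fold enrichment of their peaks was 26.8 in DF2 siRNA and 32.4 in control. Over all peaks it was 17.7 in DF2 siRNA and 20.8 in control, and over non-coding RNA peaks 10.1 in DF2 siRNA and 14.1 in control. Fold enrichment above the list's median was found in 6 of 11 DF2 siRNA peaks and 8 of 13 control peaks. Scores ran from 4 to 2936 (median 203) in DF2 siRNA and from 11 to 22404 (median 556) in control, against medians over all peaks of 74 in DF2 siRNA and 143 in control. Over non-coding RNA peaks the median score was 14 in DF2 siRNA and 27 in control. Taking the best peak of each RNA found in both lists, the median fold enrichment was 31.9 in DF2 siRNA and 48.6 in control, against 25.1 in DF2 siRNA and 37.4 in control over all gene names found in both.

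Other RNAs and proteins linked to these transcripts were read from lists chosen with earlier results of these data known. Of each list, the 3 with the highest fold enrichment are named, ordered by the larger of the DF2 siRNA and control values. Of 20 other lncRNAs of nucleus or chromatin, 7 had a peak in both lists, 0 in DF2 siRNA alone and 3 in control alone. CCAT1 (fold enrichment 34.7 in DF2 siRNA and 91.2 in control), GAS6-AS1 (33.4 in DF2 siRNA, 50.9 in control) and LINC-PINT (21.4 in DF2 siRNA, 49.6 in control) led those in both lists, while HOXA11-AS (22.1 in DF2 siRNA, 39.6 in control) stood above LINC-PINT by the DF2 siRNA value. LUCAT1 (22.1), LINC00662 (16.3) and DLEU2 (5.83) were found in control alone. Of 19 cytoplasmic or mixed lncRNAs, 5 had a peak in both lists, 1 in DF2 siRNA alone and 0 in control alone. NORAD, a cytoplasmic RNA that binds PUMILIO proteins, led with 118 in DF2 siRNA and 86.8 in control, followed by SNHG16 (19.8 in DF2 siRNA, 31.0 in control) and CYTOR (18.9 in DF2 siRNA, 23.0 in control). SNHG15 (8.11) was found in DF2 siRNA alone. The median of the best fold enrichment of those in both lists was 21.4 in DF2 siRNA and 39.6 in control for the nuclear list, and 18.9 in DF2 siRNA and 23.0 in control for the cytoplasmic or mixed list. No test sets these counts apart from those of all gene names, of which 7905 were in both lists, 605 in DF2 siRNA alone and 1997 in control alone.

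Of 21 genes of paraspeckle proteins, the partners of NEAT1, 9 had a peak in both lists, 2 in DF2 siRNA alone (DAZAP1 with 16.1, TAF15 with 12.7) and 1 in control alone (SRSF10 with 12.6). RBM12 (67.0 in DF2 siRNA and 107 in control), TARDBP (41.9 in DF2 siRNA, 94.0 in control) and FIGN (52.2 in DF2 siRNA, 91.1 in control) led, while RBM14 (46.8 in DF2 siRNA, 34.4 in control) stood above TARDBP by the DF2 siRNA value. The median was 34.8 in DF2 siRNA and 40.3 in control. Of 11 SR and speckle proteins, which meet MALAT1 in speckles, peaks of 6 were in both lists and of 1 in control alone, SRRM1 with 14.4. The median was 25.1 in DF2 siRNA and 23.6 in control. SON, a core protein of speckles, led with 78.2 in DF2 siRNA and 107 in control, followed by SRRM2 (32.8 in DF2 siRNA, 22.1 in control) and RNPS1 (31.6 in DF2 siRNA, 25.1 in control), while SRSF11 (18.6 in DF2 siRNA, 25.2 in control) stood above both of these by the control value. Of 11 neighbours and partners of the 7 genes, peaks of 9 were in both lists and of 0 in a single list, with a median of 38.2 in DF2 siRNA and 46.0 in control. Among these, FRMD8, a neighbour of NEAT1, had 92.3 in DF2 siRNA and 62.3 in control.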

How the data were processed

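The submitters' processing notes name HISAT2 and the build hg38. How peaks were called, with which annotation, filter or strand setting, is not stated in the labels or headers. The authors gave 1 peak list per condition, covering both m6A libraries per the labels, so values per library and depths are unknown. Each peak has a fold enrichment, a ratio per the file headers. The deposited −log10 value is, per the file headers, an FDR for DF2 siRNA and a p-value for control. The deposited score is a whole number without a stated meaning.

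Peaks were chosen by the gene column. Coordinates count from 1. Overlap was computed on exonic blocks, requiring 1 common base and equal strand. Block lengths were joined to block starts in the deposited order. For the FTX peak, on the minus strand, this put the last block's end short of the stated peak end, so lengths and starts were mismatched there. How many other spliced minus-strand peaks are affected was not checked. Shares over all peaks that rest on shared bases or moved ends may therefore be off. Of the 7 RNAs, only FTX had a spliced minus-strand peak. Moves of peak ends were counted in exonic nt between peaks of the same Ensembl gene. Peaks of like score lie within a factor of 5/4, and their number includes the peak itself. A percentile is the share of peaks of the list with a lower value. Intervals are Clopper-Pearson at 95%. RefSeq (GRCh38.p14) gave gene spans for all 7 RNAs and start windows (250 bases before to 50 after) for 4 of them, MALAT1, TUG1, FTX and JPX, by symbol. Peak sequence beyond these windows was not analysed here. In the added lists, RefSeq older names served for NORAD and CYTOR. Peak numbers in the entry names skip a value in 23.0% of DF2 siRNA and 22.7% of control genes, among them PVT1 in both lists and NEAT1 and HOTAIR in control. Entries with those numbers were not analysed here and why they are missing is not known, so peak counts of these genes may be too low.

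The members and lists were chosen with earlier results of these data known. All peaks of the 7 RNAs are named; of each added list, those in 1 list only and the 3 highest in both by the larger of the 2 values. HOXA11-AS, RBM14 and SRSF11 were added after their values were seen. As alternatives, lists were limited by fold enrichment, score or −log10 value, brought to equal length, or had near peaks merged, and overlap, width, pairing and naming rules were changed. Procedures were tested on simulated data, made of kept and trimmed copies of control peaks. Moved ends were tested on uninterrupted peaks and on a spliced case set by hand. These tests could not find the mismatch of block lengths and starts given above. The tools were Python 3.11.15 with pandas 2.3.3, numpy 2.4.6, scipy 1.17.1 and, for figures, matplotlib 3.10.9.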

Additional observations from a re-analysis of the deposited data

How the results depend on the processing

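Of 84 values of the main comparisons under the alternatives, 72 stayed within 1.5 times the reported value (for moves of peak ends, less than 1 bin from it) and 12 did not. With only the upper 50% of each list by fold enrichment, the 7 RNAs had 6 DF2 siRNA peaks, 5 of them overlapped and 5000 nt covered, and 8 control peaks, 5 of them overlapped. With p or FDR 100 times below the list's limit, 6 DF2 siRNA peaks were left, 5 of them overlapped and 5000 nt covered. Of the control peaks 11 were left, 5 of them overlapped. By the headers this limit is on an FDR for DF2 siRNA and on a p-value for control, so it is not the same limit in both lists. With the upper 50% by score, 7 DF2 siRNA peaks were left, all 7 overlapped. These limits drop peaks by construction. Over whole spans with introns, the median width was 1000 nt for DF2 siRNA peaks and 1000 nt for control peaks. Over exonic bases it was 600 nt for DF2 siRNA and 800 nt for control, so this difference depends on the measure of width. Covered bases were fewer in DF2 siRNA for MALAT1, TUG1, PVT1, JPX and HOTAIR under each of 6 alternatives, but of 42 values per gene 9 differed by over 1.5 times and 2 turned round. MALAT1 had -400 nt (DF2 siRNA minus control, -1200 nt with all peaks) in the upper 50% by fold enrichment, where its upstream control peak was dropped. JPX had -2400 nt with p or FDR 100 times smaller and -1600 nt in the upper 50% by fold enrichment or score, against -1000 nt with all peaks. PVT1 had -200 nt in the upper 50% by fold enrichment or score and with equal lengths, against -400 nt. FTX had 200 nt in place of 0 in the upper 50% by fold enrichment and with p or FDR 100 times smaller, its control peak being dropped. NEAT1 turned round, to -600 nt, both in the upper 50% by fold enrichment and with p or FDR 100 times smaller, since its DF2 siRNA peak was dropped. With lists of equal length, 11 DF2 siRNA and 11 control peaks were left, among them those of HOTAIR and both of MALAT1. The control peaks of PVT1 and JPX without counterpart were dropped, and 9 of the 11 control peaks left were overlapped. No paired analysis was possible because each peak list joins both libraries of its condition, and for the same reason no library could be left out. With unknown depth, a peak missing from a list is not shown to be absent from the cells.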

Other observations

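A weak peak on the opposite strand lay within the RefSeq span of MALAT1 in control alone, under the name AP000769.7, at chr11:65498010-65498405, with a fold enrichment of 5.64 (score 6).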
